A study of Mus musculus with 4 samples.

Results

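Immediate early genes are transcribed within minutes of a stimulus, without new protein synthesis, and in neurons their RNA is widely used as a mark of recent activity. Calcium entry and kinase signalling act on CREB, SRF and related factors already bound at their promoters, and the products are transcription factors, a synaptic effector and a phosphatase that feeds back on the kinases. The 10 classical members followed here were chosen by gene name: Fos, Fosb, Junb, Egr1, Egr2, Arc, Npas4, Nr4a1, Ier2 and Dusp1. They are 10 of 45170 genes with a transcript of at least 200 bases, represented by 30 of 128603 transcripts, and all 10 were among the 13752 genes whose mean over the 4 libraries reached 1 FPKM (fragments scaled by transcript length and by library size). In every library all 10 were above 0.

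The libraries were F1r (labelled CAST/EiJ x C57BL/6), F1i (C57BL/6 x CAST/EiJ), CAST (the inbred strain CAST/EiJ, derived from wild Mus musculus castaneus) and B6 (the laboratory strain C57BL/6), all labelled wild type and with no treatment stated. Each was 1 library, made from brain RNA of 5 mice whose left hemispheres were pooled. The labels used here state no age, no sex, no time of day and no handling before dissection, nor which parent of each cross was the dam. With 1 library per group there is no replicate spread, so no difference below carries an error or a test. Neuronal markers, general and of excitatory and inhibitory cells, 10 of 10 of them above 0 in all libraries, summed to 1824 FPKM in F1r, 1751 in F1i, 1646 in CAST and 1741 in B6, so the tissue label held. In such bulk RNA, fewer cells of a type and less RNA per cell cannot be told apart.

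Depth was read from genes with a single transcript over 3000 bases, whose lowest values pile up at the worth of 1 fragment. It came to about 32500000 fragments in F1r, 36600000 in F1i, 32100000 in CAST and 44700000 in B6. By the same step, the member with the fewest fragments was Ier2, with about 150 in F1r, 210 in F1i, 160 in CAST and 240 in B6, and the one with the most was Arc, with about 4600 to 7500. These are estimates, since the tables hold no counts.

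No immediate early gene was 2-fold apart between any pair of groups compared. In CAST against B6, 0 of 10 members reached the 2-fold rule on log2(FPKM + 1), a scale that understates the change of low genes, while 5.08% of all 13752 genes did. In F1r against F1i the count was 0 of 10 beside 0.494% of all genes, and in the F1 mean against the parental mean it was 0 of 10 beside 0.153%, or 21 genes, with means taken on FPKM; with means taken on log2 values it was 0 of 10 beside 52 genes. At such shares a count of 0 among 10 genes is near the background and is no result about the members. Over the 4 libraries the highest and lowest log2 value of a member lay 0.17 to 0.53 apart, with a median of 0.31, beside a median of 0.27 over all genes compared.

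**Figure D1:**
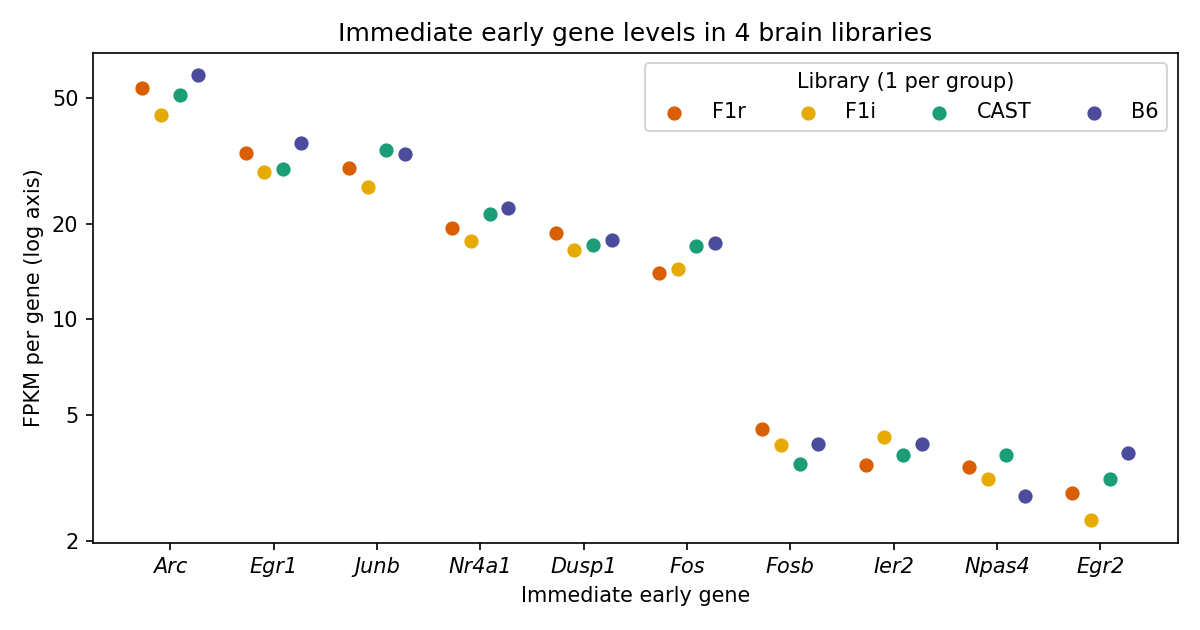
FPKM per gene (log axis) of the 10 immediate early genes in the F1r, F1i, CAST and B6 libraries, 1 point per library. Arc leads in every library, at 44.1 to 58.8 FPKM, and Fosb, Ier2, Npas4 and Egr2 lie together between 2.33 and 4.53.

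The order of the levels, in FPKM and therefore per length, was nearly the same in the 4 libraries. Arc had rank 1, Nr4a1 rank 4, Dusp1 rank 5 and Fos rank 6 in each of them. Egr1 lay above Junb except in CAST, where Junb (34.2 FPKM) lay above Egr1 (29.7 FPKM). Fosb, Ier2, Npas4 and Egr2 formed a lower tier, below 5 FPKM, in which the order changed between libraries and neighbours cannot be ranked.

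Fos, Fosb and Junb encode subunits of the AP-1 transcription factor, a dimer that can be made of a Fos and a Jun protein. Fos (chr12:85473890-85477273, plus strand, all positions GRCm38) was at 14.004 FPKM in F1r, 14.4 in F1i, 17.1 in CAST and 17.5 in B6. Both F1 libraries lay below both inbred strains, and within each pair the values were nearly equal, with log2 differences of -0.03 for CAST against B6 and -0.04 for F1r against F1i. Junb (chr8:84974484-84978718, minus strand) was at 29.99 FPKM in F1r, 26.2 in F1i, 34.2 in CAST and 33.1 in B6, again with both F1 libraries below both strains (log2 difference of the means -0.25). A short noncoding Junb transcript overlaps the gene Prdx2 on the opposite strand, but it took no more than 0.285 FPKM. Fosb (chr7:19302696-19310051, minus strand) went another way, at 4.53 FPKM in F1r, 4.01 in F1i, 3.50 in CAST and 4.05 in B6, with CAST lowest and the F1 mean above the parental mean by 0.14 on the log2 scale.

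Fosb is also the member with the most studied splice form. Removal of 140 bases from the last exon of Fosb on chromosome 7 gives deltaFosB, a shortened and long-lived protein that accumulates after repeated stimulation. GENCODE M21 annotates the full form, Fosb-201, with 338 residues and the form that lacks the segment, Fosb-206, with 237. The segment lies at chr7:19305007-19305146 (GRCm38, minus strand) inside the coding sequence, and it is shown because reads across it are what sets the forms apart. It is printed in capitals with 20 bases of the exon on each side in small letters (chr7:19304987-19305166), and the joined flanks of the spliced form follow it.
Fosb with the segment: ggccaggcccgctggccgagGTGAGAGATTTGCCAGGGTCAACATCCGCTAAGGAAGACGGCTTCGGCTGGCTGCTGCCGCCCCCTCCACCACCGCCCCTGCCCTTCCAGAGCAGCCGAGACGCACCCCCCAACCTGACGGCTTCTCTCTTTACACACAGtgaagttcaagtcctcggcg
Fosb without the segment: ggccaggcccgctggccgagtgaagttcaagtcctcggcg

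Most Fosb RNA was assigned to the full form. Fosb-201 was at 3.31 FPKM in F1r, 3.39 in F1i, 2.62 in CAST and 2.68 in B6. Coding transcripts without the segment, Fosb-206 and Fosb-207 together, made up 14.5% of Fosb FPKM in F1r, 5.95% in F1i, 14.9% in CAST and 15.7% in B6. The low share in F1i came from Fosb-207, a form that also lacks the exon before. It was at 0.447 FPKM in F1r, 0.000102 in F1i, 0.350 in CAST and 0.5002 in B6, which corresponds to about 48 fragments in F1r, 37 in CAST and 74 in B6. Fosb-206 itself was at 0.212 FPKM in F1r, 0.238 in F1i, 0.171 in CAST and 0.136 in B6, on an estimated 4.9 to 7.8 fragments per library, too few to rank the libraries. Transcript values are the authors' model-based split of shared reads, and 2 of the 7 Fosb transcripts were at 0 in all libraries.

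**Figure D2:**
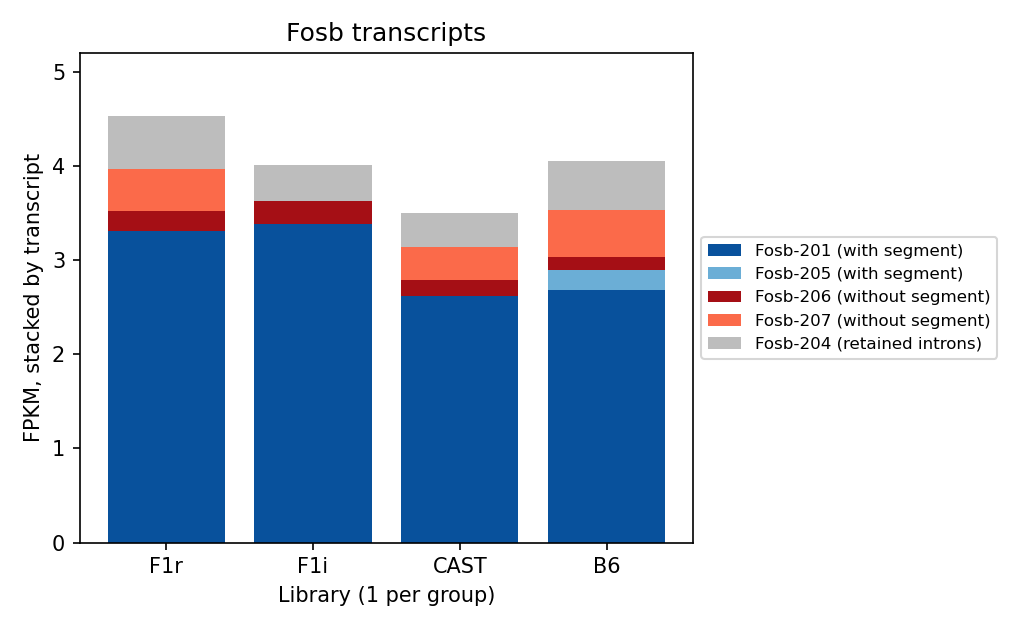
FPKM of the Fosb transcripts stacked by library; bars start at 0, and blue marks forms with the 140-base segment, red forms without it and grey the unspliced form. The forms with the segment make up 71.5% to 84.5% of each bar, and the light red Fosb-207 is missing from the F1i bar.

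Egr1 and Egr2 encode zinc finger transcription factors of the same family, Egr1 being the common forebrain activity marker. Egr1 (chr18:34859823-34864984, plus strand) was at 33.3 FPKM in F1r, 29.2 in F1i, 29.7 in CAST and 36.0 in B6. F1r lay above F1i (log2 difference 0.19) and CAST below B6 (-0.27), and the F1 and inbred values overlapped. GENCODE M21 models Egr1 with 2 transcripts of equal coding length, of which the shorter took 74.7% of Egr1 FPKM in F1r, 71.3% in F1i, 63.9% in CAST and 68.6% in B6. Egr2 (chr10:67535475-67542188, plus strand) was at 2.85 FPKM in F1r, 2.33 in F1i, 3.14 in CAST and 3.80 in B6. It had the widest span of the 10 members, 1.63-fold from F1i to B6, and its values in both F1 libraries lay below both strains. Its estimated fragments were 250 in F1r, 230 in F1i, 280 in CAST and 420 in B6, so Egr2 is among the least deeply covered members.

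Npas4, a basic helix-loop-helix PAS factor that responds to calcium entry in neurons and is regarded as selective for it, was highest in CAST and lowest in B6. The gene (chr19:4984355-4989971, minus strand) was at 3.43 FPKM in F1r, 3.14 in F1i, 3.75 in CAST and 2.78 in B6. CAST was 35.2% above B6 (log2 difference 0.33), the largest strain difference among the 10 on the deposited gene sums; with median-ratio scaling Egr1 (-0.33) was further apart than Npas4 (0.28). Both F1 libraries lay between the strains, on an estimated 340 fragments in F1r, 350 in F1i, 370 in CAST and 380 in B6. Nr4a1, an orphan nuclear receptor also known as Nur77 (chr15:101266846-101274792, plus strand), was at 19.4 FPKM in F1r, 17.6 in F1i, 21.4 in CAST and 22.4 in B6. Its F1 values lay below both strains (log2 difference of the means -0.23), while CAST minus B6 was -0.06.

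Arc is the effector of the group, a protein that reaches dendrites and takes part in AMPA receptor removal at synapses. The gene (chr15:74669083-74672570, minus strand) was at 53.5 FPKM in F1r, 44.1 in F1i, 50.9 in CAST and 58.8 in B6. F1r was 21.2% above F1i (log2 difference 0.27), and CAST lay below B6 (-13.4%). The 2 Arc transcripts differ by 3 bases at a splice junction in the untranslated region and by 2 at the start. Arc-201 took 64.8% of the gene in F1r, 62.8% in F1i, 55.4% in CAST and 68.2% in B6. With so little sequence between them this split is uncertain, and the summed value is the one to use.

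Ier2 (chr8:84661331-84662852, minus strand), a nuclear protein of the immediate early response, was at 3.48 FPKM in F1r, 4.27 in F1i, 3.74 in CAST and 4.06 in B6. F1r was lowest and F1i highest (log2 difference -0.23), on an estimated 150 fragments in F1r and 210 in F1i. Dusp1, the phosphatase that inactivates MAP kinases and which glucocorticoids also induce, varied least of the 10 on the deposited scale. The gene (chr17:26505590-26508519, minus strand) was at 18.7 FPKM in F1r, 16.5 in F1i, 17.1 in CAST and 17.8 in B6, a span of 1.14-fold. Its intron-retaining transcripts took 9.67% of the gene in F1r, 11.6% in F1i, 9.72% in CAST and 10.5% in B6, and noncoding Fos transcripts took 16.2% of Fos in F1r, 18.2% in F1i, 16.1% in CAST and 13.96% in B6. In neither gene did these shares show one library far from the others.

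Set against each other, CAST was lower in value than B6 for 8 members and higher for 2, Junb and Npas4. Of all 13752 genes, 6134 were lower in value in CAST and 7616 higher. The median log2 difference of the 10 was -0.08, beside 0.04 for all 13752 genes. The 10 neuronal markers had a median of -0.15 on the same deposited scale, with 7 lower in value in CAST and 3 higher. The members' direction depends on the scale. When each library was rescaled to the same FPKM total, all 10 members were higher in value in CAST with a median of 0.22. The median of all genes moved to 0.34. That total was taken over all transcripts, with the short and small RNA types that the comparisons left out. With median-ratio scaling 9 members were lower in CAST and 1 higher, with a median of -0.13 beside -0.02 for all genes. Relative to the median of all genes, the members' median was -0.11 as deposited and -0.12 after rescaling. Between the hybrids, 8 members were higher in value in F1r than in F1i and 2 were lower, Fos and Ier2. Of all genes, 7989 were higher in F1r and 5760 lower. The members' median was 0.16 beside 0.03 for all genes, and 0.40 beside 0.27 after rescaling, when Fos too was higher in F1r.

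**Figure D3:**
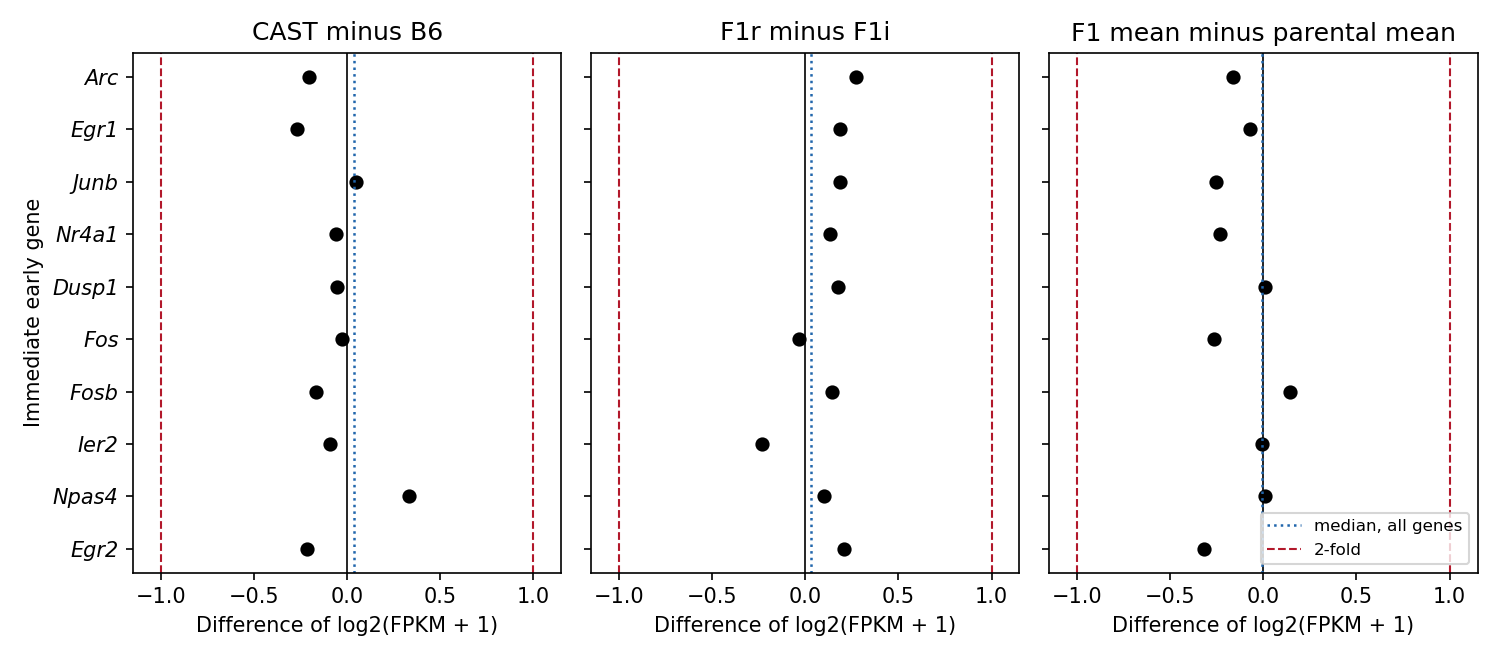
Differences of log2(FPKM + 1) for the 10 immediate early genes in 3 comparisons, with dashed lines at 2-fold and a dotted line at the median of all genes compared. Every point lies between -0.32 and 0.33, far inside the 2-fold lines.

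For 4 of 10 members, Fos, Junb, Egr2 and Nr4a1, both F1 libraries lay below both inbred libraries, a pattern shown by 9.87% of all genes. None of the 10 had both F1 libraries above both strains, which 8.78% of all genes did; the count was 1 of 10 with the highest transcript only (10.7% of all genes) and with coding transcripts only (10.6%). After rescaling to a common total, 2 members, Fos and Egr2, kept the pattern, beside 4.64% of all genes. The median difference of the F1 mean from the parental mean was -0.12 over the 10 members, from -0.32 (Egr2) to 0.14 (Fosb), beside -0.01 over all genes. F1i was the lowest library for 6 members and for 19.5% of all genes, and B6 the highest for 5 members and for 4126 of the 13752 genes. These counts follow the scaling as well: after rescaling F1i was lowest for 8 members, beside 40.1% of all genes, and B6 highest for 0, beside 8.86%. With median-ratio scaling F1i was lowest for 4 members, beside 15% of all genes, and B6 highest for 6, beside 35.6%.

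Promoters were examined because the members share their textbook regulators. RefSeq promoter windows (GRCm38.p6, 250 bases before to 50 after a start) were found for 7 of the 10 members, and not for Arc, Egr1 and Ier2. The core of the cyclic AMP response element, TGACG on either strand, was present in at least 1 window of all 7, beside 20.8% of 32851 windows and 23.0% of 27025 genes. The full element (TGACGTCA) was found in Dusp1 alone, beside 1.79% of windows and 2.03% of genes. The CArG box bound by SRF was found in Egr2 alone, beside 1.63% of windows and 1.81% of genes. Sequence outside the windows was not searched, so a motif missing here may lie elsewhere at the same gene. The AP-1 motif TGANTCA was in none of the 7, beside 7.81% of windows and 8.97% of genes. TATAAA was in Fos and Junb, beside 13.6% of windows and 15.7% of genes. Of these, 4 windows are shown up to the start, 250 bases each, with TGACG or its reverse CGTCA in capitals, and also TATAAA in Fos, the full element in Dusp1, where it holds an overlapping match on each strand, and the CArG box in Egr2. They were chosen for Fos as the best known member, Nr4a1 for the most matches (4), and Dusp1 and Egr2 for the rarer motifs.
Fos, chr12:85473640-85473889, plus strand: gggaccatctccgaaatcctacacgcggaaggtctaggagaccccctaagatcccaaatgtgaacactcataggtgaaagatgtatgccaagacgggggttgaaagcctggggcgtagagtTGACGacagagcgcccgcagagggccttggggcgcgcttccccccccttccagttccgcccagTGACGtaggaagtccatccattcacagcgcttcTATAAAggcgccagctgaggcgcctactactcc
Nr4a1, chr15:101266596-101266845, plus strand: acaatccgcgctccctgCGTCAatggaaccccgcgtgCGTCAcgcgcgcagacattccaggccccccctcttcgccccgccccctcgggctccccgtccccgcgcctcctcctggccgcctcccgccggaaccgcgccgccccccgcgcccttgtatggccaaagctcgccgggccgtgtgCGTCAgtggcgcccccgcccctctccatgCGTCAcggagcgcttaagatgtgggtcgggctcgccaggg
Dusp1, chr17:26508473-26508722, minus strand: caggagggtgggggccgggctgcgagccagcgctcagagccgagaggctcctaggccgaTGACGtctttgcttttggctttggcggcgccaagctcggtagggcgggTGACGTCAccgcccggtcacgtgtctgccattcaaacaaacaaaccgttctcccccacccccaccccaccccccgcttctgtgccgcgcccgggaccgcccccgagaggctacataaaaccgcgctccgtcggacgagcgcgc
Egr2, chr10:67537619-67537868, plus strand: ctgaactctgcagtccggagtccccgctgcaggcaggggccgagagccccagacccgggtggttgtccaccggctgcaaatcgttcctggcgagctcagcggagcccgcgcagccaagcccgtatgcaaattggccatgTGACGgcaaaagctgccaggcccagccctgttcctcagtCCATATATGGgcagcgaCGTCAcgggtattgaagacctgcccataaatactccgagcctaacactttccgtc
In Fos the matches begin at -129 and -66 and the TATA box at -33, counted from the start with -1 as the base before it. Nr4a1 has them at -233, -213, -69 and -40, and the CArG box of Egr2 begins at -72 between matches at -111 and -55. These are letters of the B6-derived reference. CAST sequence was not analysed here, and a match is a description and not a bound site.

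Other genes of the same response gave the context. Of 38 further rapid activity-regulated genes 34 passed the filter, all but Fosl1, Atf3, Amigo3 and Zfp36. Of these 34, 0 reached the 2-fold rule on log2(FPKM + 1) in any comparison. Between CAST and B6 their median was -0.12, near that of the 10 members, with 22 lower in value and 12 higher. Among all 13752 genes 6134 were lower and 7616 higher. Sgk1, a kinase that glucocorticoids induce, was at 66.0 FPKM in F1r, 42.0 in F1i, 47.0 in CAST and 74.3 in B6, and Arl4d, a small GTPase, at 20.6 in F1r, 12.9 in F1i, 13.99 in CAST and 22.1 in B6. In both genes F1r was close to B6 and F1i close to CAST, with log2 differences of 0.64 and 0.63 for F1r against F1i and -0.65 and -0.62 for CAST against B6. Klf4 (-0.57) was the next lowest in CAST against B6, at 0.70 FPKM in CAST and 1.52 in B6. In FPKM itself, without the added 1, Klf4 was thus more than 2-fold apart. Homer1 (0.38), Jun (0.35) and Maff (0.30) were the highest in the same comparison. Values in this list are sums over the transcripts of a gene, so the forms of Homer1 were not told apart. Jun, an AP-1 partner of Fos, was at 20.2 FPKM in F1r, 16.9 in F1i, 18.9 in CAST and 14.6 in B6, with the strains in the order opposite to Fosb. Per1, a clock gene that activity also induces, was at 12.9 FPKM in F1r, 11.7 in F1i, 11.6 in CAST and 14.7 in B6. Between the hybrids 32 of the 34 were higher in value in F1r (median 0.13), beside 7989 of all 13752 genes (median 0.03). Klf2 (0.33) came after Sgk1 and Arl4d, and Dusp4 (-0.03) and Gadd45b (-0.01) were the 2 below 0. Egr3, a close relative of Egr1, was at 15.4 FPKM in F1r, 13.8 in F1i, 10.6 in CAST and 11.9 in B6, with both hybrids above both strains where Egr2 had them below. The F1 mean lay above the parental mean also in Btg2 (0.16) and Jun (0.14), and below it in Klf10 (-0.28), Dusp6 (-0.22) and Midn (-0.22). Over the 34 the median of this comparison was -0.06, with 25 lower in value and 9 higher. Among all genes the median was -0.01, with 7229 lower and 6523 higher.

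Genes that follow later, some of them with secretory or synaptic products, had a median of 0.11 in CAST against B6 over 24 compared of 26 listed, beside 0.04 over all genes. In value 17 were higher in CAST and 7 lower, beside 7616 higher and 6134 lower among all genes, with 0 of the list past the 2-fold rule. The immediate early median on the same deposited scale was -0.08. Rescaling to a common total moved it to 0.22 and the median of all genes from 0.04 to 0.34. The delayed list was not recomputed on that scale, so its 0.11 cannot be set beside 0.22. The difference between the lists was not tested. Inhba, an activin subunit, was at 2.72 FPKM in F1r, 2.63 in F1i, 3.47 in CAST and 1.85 in B6, and Ptgs2, the inducible cyclooxygenase, at 3.52 in F1r, 3.32 in F1i, 4.74 in CAST and 3.05 in B6. Nptx2, a pentraxin of excitatory synapses, followed at 0.45 on the log2 scale. Like Npas4, these 3 were highest in CAST and lowest in B6, with both hybrids between. Bdnf, the neurotrophin, was at 8.15 FPKM in F1r, 7.62 in F1i, 9.59 in CAST and 7.94 in B6. Sst (-0.30), Nefm (-0.12) and Pcsk1 (-0.10) were lowest. In F1r against F1i the list median was 0.06, with Cdkn1a (0.30), Tac1 (0.27) and Pdyn (0.26) at the top and Sst (-0.09), Pcsk1 (-0.04) and Scg2 (-0.04) at the bottom. The F1 mean differed from the parental mean by 0.28 in Nefm, 0.14 in Pdyn and 0.12 in Kcna1, and by -0.32 in Plk3, -0.17 in Gpr3 and -0.15 in Ptgs2, with a list median of 0.03.

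Upstream signalling genes and the factors that act on these promoters had a median of 0.14 in CAST against B6, over all 42. In value 37 were higher and 5 lower, with 0 past the 2-fold rule. The median of all genes was 0.04, with 7616 higher and 6134 lower. Grin2a, an NMDA receptor subunit, was at 39.3 FPKM in F1r, 35.7 in F1i, 44.7 in CAST and 30.2 in B6, and Camk4, a calcium-dependent kinase that acts on CREB, at 28.2 in F1r, 23.3 in F1i, 29.1 in CAST and 20.1 in B6. Rps6ka3 (0.49) was also high in CAST, while Rps6ka2 (-0.54), Mef2c (-0.10) and Ppp3ca (-0.07) were lowest. Creb1 was at 13.9 FPKM in F1r, 12.5 in F1i, 13.4 in CAST and 12.3 in B6, and Srf at 9.39 in F1r, 8.68 in F1i, 10.02 in CAST and 8.58 in B6. Between the hybrids the median was 0.12, with Mkl1 (0.43), Atf1 (0.40) and Crtc2 (0.39) at the top and Prkaca (-0.05), Rps6ka3 (-0.04) and Mapk3 (-0.01) at the bottom. For the F1 mean against the parental mean it was 0.04, from 0.20 in Mkl1, 0.19 in Mkl2 and 0.11 in Mef2c to -0.14 in Rps6ka1, -0.13 in Crtc2 and -0.12 in Map2k2. Counts and medians of the rapid, delayed and upstream lists are on the deposited scale and were not recomputed after rescaling. The comparisons share libraries, and no difference between lists was tested.

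**Figure D4:**
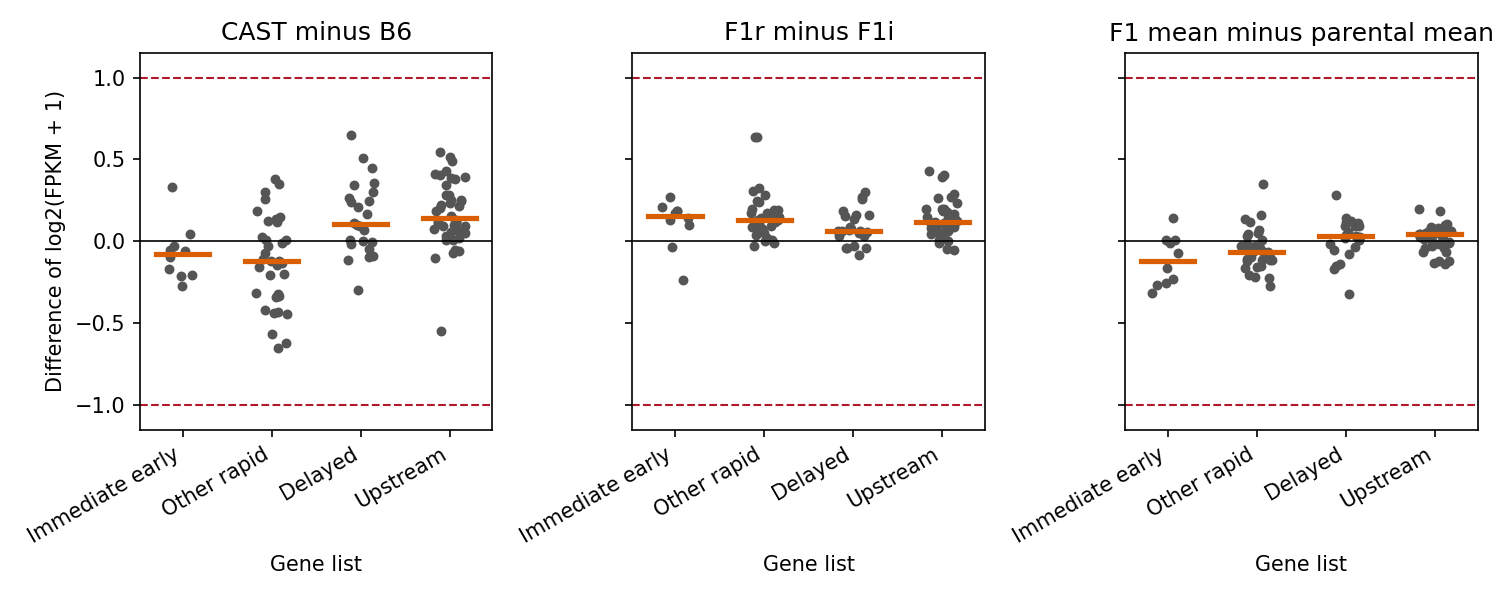
Differences of log2(FPKM + 1) by gene list in 3 comparisons, 1 point per gene, with the list median as a bar and dashed lines at 2-fold. In CAST minus B6 the medians of the immediate early genes (-0.08) and other rapid genes (-0.12) lie below 0 and those of the delayed (0.11) and upstream genes (0.14) above it.

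Markers of other cells and regions moved between the same libraries, and their part in the values above was not tested. Oligodendrocyte markers summed to 1538 FPKM in F1r, 1692 in F1i, 1236 in CAST and 2006 in B6, and microglial markers to 83.6 in F1r, 96.5 in F1i, 78.2 in CAST and 112 in B6. Blood markers summed to 319.98 FPKM in F1r, 505 in F1i, 338 in CAST and 514 in B6. Of the 5 blood markers 4 were lower in value in CAST than in B6, with Hba-a2 at 0.103 FPKM in CAST and 66.5 in B6. Hba-a1 was higher, at 137 FPKM in CAST and 107 in B6. Of the 6 microglial markers 5 were lower in CAST, and P2ry12 was higher, at 20.8 FPKM in CAST and 16.9 in B6. Mural and meningeal markers summed to 38.4 to 66.8 FPKM (highest in B6), astrocyte markers to 791 to 897, and endothelial markers, a cell type that also makes Fos, Egr1 and Dusp1, to 29.6 to 36.2. Regional markers had summed FPKM of 42.2 to 48.3 for hippocampus, 148 to 173 for striatum (highest in F1r), 212 to 250 for cerebellum, 20.01 to 23.1 for olfactory bulb and 105 to 119 for upper cortex layers. These sums hold single markers that moved in opposite directions in CAST against B6, among them cerebellar Gabra6 (1.01 on the log2 scale) and Car8 (-1.30) and hippocampal Wfs1 (0.64) and Bok (-0.83). In F1r against F1i the median log2 difference was 0.27 for striatal, 0.22 for upper cortex and 0.13 for hippocampal markers. It was 0.06 for neuronal, 0.02 for olfactory bulb and -0.12 for cerebellar markers. All 74 listed markers were above 0 in the 4 libraries.

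The genes whose profile over the 4 libraries lay nearest the mean profile of the 10 members were Taf8, Topors, Fam126a, Ppp1r3c, Caskin2, Fam13c, Rap1b and Dnajb5. Their Euclidean distances on centred log2(FPKM + 1) were 0.02, while the members themselves lay 0.12 to 0.31 from their own mean and a flat profile lay 0.15 from it. The mean profile is thus close to flat, and the likeness rests on 4 points.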

How the data were processed

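Strand-specific libraries were made from total RNA, per the labels' protocols, which name left hemispheres, while the series design speaks of whole brain. The authors deposited FPKM per transcript, 1 table per library, with gene, length and locus. The submitters' processing notes name Cufflinks 2.2.1, Cuffdiff, HISAT2, Trimmomatic 0.36 and bcl2fastq 2.20, with mm9 as the build. The loci are nevertheless GRCm38 positions: 99.6% of 128603 transcripts were found in GENCODE M21, and start and end were identical for 97.2% of them. How reads with several matches or CAST variants were treated is not given in the sources used here, and whether CAST reads were lost in alignment was not tested. Of the 31-base words of the members' transcripts, none recurred in other genes for 7 of them, 0.406% for Egr2, 0.0472% for Fosb and 6.51% for Junb.

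Transcripts under 200 bases and the types miRNA, snoRNA, snRNA and scaRNA were left out, the rest summed per gene, and genes with a mean of at least 1 FPKM compared as log2(FPKM + 1): CAST minus B6, F1r minus F1i, and the F1 mean minus the parental mean, each mean taken on FPKM, a choice made after seeing the data, since means of log2 values had been computed first. A gene was counted when its difference reached 2-fold, with no test. Estimated fragments assume 200-base fragments. Motif matches were searched on both strands. The steps were run on simulated data in which the planted changes were well past 2-fold. That run does not bear on differences as small as those of the members. Named genes were the 10 members, in each of 3 further lists the 3 largest differences per direction and comparison (Per1, Bdnf, Creb1 and Srf were added after their values were seen), and the 8 protein-coding genes nearest the members' mean profile. The members and lists were chosen with earlier results of these data known. Alternatives were a pseudocount of 0.1, no filter, a mean of at least 5 FPKM, a common FPKM total, median-ratio scaling, the highest transcript only, all transcript lengths, and coding transcripts only. Python 3.11.15, numpy 2.4.6, pandas 2.3.3 and matplotlib 3.10.9 were used.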

Additional observations from a re-analysis of the deposited data

How the results depend on the processing

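In each of the 3 comparisons, 0 members were 2-fold apart under all 8 alternatives, with 6 of the 10 left to compare at a mean of at least 5 FPKM. Rescaling to a common FPKM total moved the members' median from -0.08 to 0.22 in CAST against B6 and from 0.16 to 0.40 in F1r against F1i, with the median of all genes moving by a like amount. Apart from this rescaling, single members changed sign for Junb in CAST against B6 under median-ratio scaling (-0.01), and with the highest transcript only for Fosb in F1r against F1i (-0.03) and Egr1 in the F1 mean against the parental mean (0.06). Arc in CAST against B6 became -0.49 with its highest transcript only, the split described as uncertain above. Counts over all genes moved more. For CAST against B6 the 698 genes became 1062 with a pseudocount of 0.1, 366 at 5 FPKM and 349 with coding transcripts, where 33.0% of the called genes were higher in CAST instead of 55.6%; after rescaling 77.0% were. For F1r against F1i the 68 became 183, 32 and 32 in the same order and 107 with all lengths, and the share higher in F1r was 67.8% after rescaling instead of 47.1%. For the F1 mean the 21 became 47, 7 and 9, 34 with no filter and 65 with all lengths. That comparison was first computed with the means taken on log2(FPKM + 1), which counted 52 genes, 39 higher and 13 lower in the F1 libraries, against 6 higher and 15 lower with means on FPKM; means on FPKM were chosen after both counts had been seen, and with either 0 of 10 members were 2-fold apart and the members' median was -0.12. No paired analysis was possible because each group has 1 library. Depth limits the transcripts, several of which rest on under 10 estimated fragments.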
